A study of Homo sapiens with 2 samples.

Results

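The genes described here are 45 genes of the machinery that separates chromosomes at cell division: mitotic kinases and cyclins, spindle checkpoint and ubiquitination factors, kinesin motors, kinetochore proteins, and spindle and cytokinesis proteins. They were chosen by name for their roles, with no threshold on their values but with earlier results of these data known. Of the 45, 44 had transcripts in the analysed table (KIF15 was not analysed here). The whole table gave 34237 named genes, of which 11582 had a mean of at least 1 TPM over the libraries and were compared. TPM, the unit of the table, is a transcript's abundance corrected for its length and scaled so that each library sums to 1000000, so it states a share of the RNA and not an amount per cell. The cells were HepG2, an established line from a human liver tumour, with a Dox-on expression cassette for SAMD4B, an RNA-binding protein. One library came from these cells after 48 h in 1 µg/ml doxycycline (Dox), and the other from the same cassette-bearing cells kept without Dox. Whether the line is 1 clone or a pool is not given in the sources used here, and cells given Dox without the cassette were not analysed here, so effects of Dox and of SAMD4B cannot be told apart. With 1 library on each side, replicate spread is unknown and no test was made, and each difference below is a difference between these libraries.

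Entry into mitosis is driven by cyclin B bound to the kinase CDK1. Polo-like and Aurora kinases then build the spindle, kinesins move and shorten microtubules, and kinetochores tie chromosomes to them. The spindle checkpoint holds back the anaphase-promoting complex (APC/C), a ubiquitin ligase, until every kinetochore is attached, after which cyclins and securin are degraded. Most of these genes are transcribed late in the cell cycle, through the transcription factors FOXM1 and B-MYB and the MuvB complex, which binds a short promoter element called CHR. Their mRNA in a growing culture therefore depends on how many cells are in G2 and M phase as well as on the level within each cell, and in bulk RNA fewer such cells and less RNA per cell cannot be told apart.

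SAMD4B had 261 TPM with Dox and 47.5 TPM without Dox, the direction its label states. The deposited table gives no depth. Depth was estimated from the steps of its low values, as 23810300 fragments with Dox and 18311639 without Dox. These figures cover only transcripts of 600 nt or more that were found in the annotation used. All of the 8 hepatocyte markers looked at were present, led by AFP at 12140 TPM with Dox and 13406 TPM without Dox. Of 11 fibroblast, endothelial and immune markers, 3 reached a mean of 1 TPM. CD68 had 11.3 TPM with Dox and 10.7 TPM without Dox, PDGFRB had 7.35 TPM with Dox and 4.11 TPM without Dox, and PECAM1 had 4.55 TPM with Dox and 4.57 TPM without Dox. The immune markers PTPRC and CD3E and the endothelial marker VWF were listed at 0 in both libraries. Over the 11 markers the summed level was 23.4 TPM with Dox and 20.2 TPM without Dox, and its part in the results below was not tested.

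Mitotic genes were slightly but broadly lower with Dox. Of the 44 measured genes 38 had a lower TPM with Dox and 6 a higher one, where 47.0% of all genes compared were lower. The median difference was -0.18 on the scale log2((TPM with Dox + 1)/(TPM without Dox + 1)), against 0.02 over all genes compared. The genes together held 1920 TPM with Dox and 2185 TPM without Dox, a log2 ratio of -0.19. Few differences were large. BIRC5, PLK1 and KIF20A were at least 1.5-fold lower, where 3.90% of all genes were, and no member was at least 1.5-fold higher, where 5.32% of all genes were. No member was 2-fold lower or higher, where 0.967% and 1.62% of all genes were. At a fold of 1.25, 8 members were lower and 1 was higher, against 12.9% and 15.3% of all genes, and 14 members differed by less than 1.1-fold. Position among all genes shows the shift better than fold: 24 of the 44 lay below -0.17, the value that marks the lowest 25% of all genes, and 2 lay above 0.21, the value that marks the highest 25%. The hepatocyte markers lay close to the mitotic genes, with 7 of 8 lower and a median of -0.15. What part a shift shared with these markers has in the mitotic values was not tested.

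**Figure D1:**
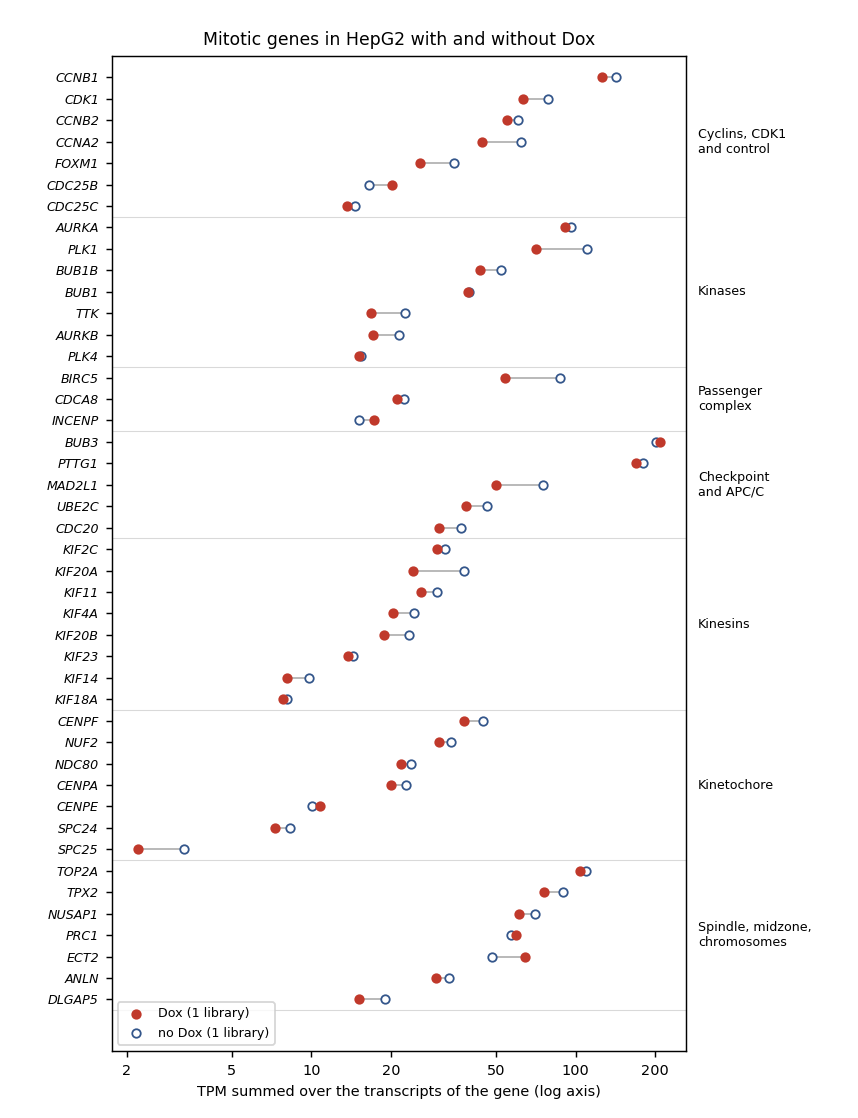
TPM of each measured mitotic gene on a log axis, with the library with Dox as filled points and the library without Dox as open points, 1 library per group, grouped by role. In 38 of 44 genes the filled point lies to the left; ECT2, at 64.6 TPM with Dox and 48.2 TPM without Dox, has the widest gap the other way.

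Promoters of the members at the ends of the range are shown because the CHR element and the CCAAT box are known from many genes of this group. They come from RefSeq (GRCh38.p14) and run from 250 bases before to 50 bases after an annotated start site, 5′ to 3′ on the gene's strand. Capitals mark TTTGAA or TTCGAA, the CHR letters, and CCAAT, the letters of the box bound by the factor NF-Y, each on either strand. Over all members 1 CHR match, in CDCA8, overlapped a CCAAT match. PLK1 (chr16:23678639-23678938, plus strand), KIF20A (chr5:138178862-138179161, plus strand), MAD2L1 (chr4:120066799-120067098, minus strand) and CCNA2 (chr4:121823834-121824133, minus strand) are those with the lowest differences among members with an entry, and ECT2 (chr3:172750476-172750775, plus strand) and CDC25B (chr20:3786701-3787000, plus strand) are the 2 with the highest difference. BIRC5, the lowest of all, has no entry in the table used.
PLK1: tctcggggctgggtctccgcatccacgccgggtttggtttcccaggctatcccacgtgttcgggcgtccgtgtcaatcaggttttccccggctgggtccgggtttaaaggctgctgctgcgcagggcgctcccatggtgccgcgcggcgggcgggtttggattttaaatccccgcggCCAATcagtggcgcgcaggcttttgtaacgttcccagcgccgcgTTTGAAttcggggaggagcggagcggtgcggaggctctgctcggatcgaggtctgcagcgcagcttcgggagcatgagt
KIF20A: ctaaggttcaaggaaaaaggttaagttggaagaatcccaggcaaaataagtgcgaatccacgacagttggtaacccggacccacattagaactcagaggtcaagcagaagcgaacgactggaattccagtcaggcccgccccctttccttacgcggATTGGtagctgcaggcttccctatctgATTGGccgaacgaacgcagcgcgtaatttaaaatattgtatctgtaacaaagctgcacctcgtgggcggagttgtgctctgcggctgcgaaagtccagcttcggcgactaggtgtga
MAD2L1: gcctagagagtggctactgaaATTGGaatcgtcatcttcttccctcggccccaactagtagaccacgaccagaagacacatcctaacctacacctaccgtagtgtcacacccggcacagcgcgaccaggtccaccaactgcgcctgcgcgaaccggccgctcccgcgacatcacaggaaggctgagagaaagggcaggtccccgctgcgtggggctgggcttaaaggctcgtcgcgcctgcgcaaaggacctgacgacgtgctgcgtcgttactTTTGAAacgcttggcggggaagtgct
CCNA2: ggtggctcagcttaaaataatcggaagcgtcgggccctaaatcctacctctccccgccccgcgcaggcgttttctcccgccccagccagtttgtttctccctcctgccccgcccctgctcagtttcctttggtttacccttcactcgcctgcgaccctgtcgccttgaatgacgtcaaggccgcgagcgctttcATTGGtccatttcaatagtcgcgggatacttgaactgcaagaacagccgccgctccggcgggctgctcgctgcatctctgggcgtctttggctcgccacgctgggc
ECT2: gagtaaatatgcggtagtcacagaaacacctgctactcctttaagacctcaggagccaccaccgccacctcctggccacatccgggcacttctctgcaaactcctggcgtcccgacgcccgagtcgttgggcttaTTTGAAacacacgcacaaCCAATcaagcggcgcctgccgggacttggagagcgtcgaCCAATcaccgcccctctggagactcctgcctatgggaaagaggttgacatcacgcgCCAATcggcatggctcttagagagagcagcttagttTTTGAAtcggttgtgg
CDC25B: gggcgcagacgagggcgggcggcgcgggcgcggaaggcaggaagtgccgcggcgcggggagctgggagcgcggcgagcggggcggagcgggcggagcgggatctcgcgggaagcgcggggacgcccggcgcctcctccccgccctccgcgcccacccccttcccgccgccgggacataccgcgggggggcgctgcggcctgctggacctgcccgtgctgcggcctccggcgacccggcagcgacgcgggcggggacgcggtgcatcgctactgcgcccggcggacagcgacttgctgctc
The CHR match of PLK1 begins 29 bases before the start and that of MAD2L1 25 bases after it, and ECT2 has 2 matches. KIF20A, CCNA2 and CDC25B show no CHR match in this window, which says only that these letters are not there, and CDC25B shows no CCAAT either. ECT2 is higher with Dox and carries both elements, while KIF20A and CCNA2 are lower and show CCAAT alone. CDC25B is higher over all transcripts but at -0.09 on coding transcripts alone. Whether the letters bear on direction was not tested.

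Of the 38 members with a promoter entry, 28 (73.7%) held a CHR match at their first listed start, against 11.3% of the 9047 promoters of genes compared and 16.6% of all 27305 promoters. CCAAT was found in 28 members (73.7%), against 37.4% of the genes compared, and both elements in 22 members (57.9%), against 4.89%. The nearest genes held them often as well: of 102 promoters of the other mitotic genes described further on, 44.1% held a CHR match, 55.9% CCAAT and 28.4% both. Allowing any listed start, 30 members (78.9%) held a CHR match, against 15.8% of the genes compared. The matches were also placed alike. Of 37 CHR matches in members, 27 (73.0%) lay within 50 bases of the start, against 27.6% of matches in the genes compared, and 41 of 57 CCAAT matches (71.9%) lay 125 to 25 bases before it, against 54.1%. Among measured members, the 27 with a CHR match had a median log2 difference of -0.18 (lowest -0.63, highest 0.42) and the 10 without had -0.13 (lowest -0.61, highest 0.28), ranges that overlap almost wholly. These are matches of letters and not bound sites.

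**Figure D2:**
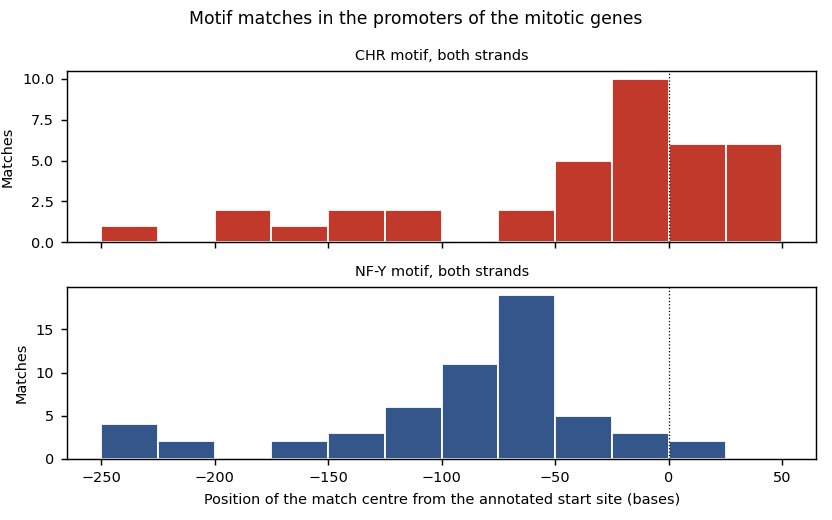
Number of motif matches on either strand, in bins of 25 bases, by distance of the match centre from the annotated start site, over the 38 mitotic genes with a promoter entry. CHR matches (upper panel) crowd around the start, with 27 of 37 within 50 bases, and matches of the NF-Y motif (lower panel) stand upstream of it, with 41 of 57 between 125 and 25 bases before.

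Of the 7 genes of cyclins, CDK1 and their direct controls, 6 were lower with Dox, where 47.0% of all genes compared were. CCNA2 (ENSG00000145386, chromosome 4, 121816444 to 121823933, GRCh38), the cyclin of S phase and early mitosis, had 44.1 TPM with Dox and 62.1 TPM without Dox (log2 difference -0.49). The mitotic cyclins differed less. CCNB1 had 125 TPM with Dox and 142 TPM without Dox (-0.18), and CCNB2 had 54.8 TPM with Dox and 60.8 TPM without Dox (-0.15). Their kinase CDK1 had 63.2 TPM with Dox and 78.5 TPM without Dox (-0.31). FOXM1 (ENSG00000111206, chromosome 12, 2857681 to 2877155), the transcription factor that activates many genes of this group, had 25.8 TPM with Dox and 34.5 TPM without Dox (-0.40). The 2 phosphatases that switch CDK1 on differed in direction over all transcripts, but not on coding transcripts alone, where CDC25C was at -0.10 and CDC25B at -0.09. Over all transcripts CDC25C had 13.6 TPM with Dox and 14.7 TPM without Dox (-0.10), whereas CDC25B (ENSG00000101224, chromosome 20, 3786772 to 3806121) had 20.3 TPM with Dox and 16.5 TPM without Dox (0.28).

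All 7 mitotic kinases had a lower TPM with Dox, by unequal amounts, where 47.0% of all genes compared were lower. PLK1 (ENSG00000166851, chromosome 16, 23677656 to 23690367), which acts from centrosome maturation to cytokinesis, had 70.9 TPM with Dox and 111 TPM without Dox (-0.63). PLK4, its relative that starts centriole duplication, had 15.2 TPM with Dox and 15.4 TPM without Dox (-0.02). The Aurora kinases were likewise unequal: AURKA, of the spindle poles, had 91.2 TPM with Dox and 96.4 TPM without Dox (-0.08). AURKB, of centromeres and the midzone, had 17.1 TPM with Dox and 21.5 TPM without Dox (-0.31). Of the checkpoint kinases, TTK had 16.9 TPM with Dox and 22.7 TPM without Dox (-0.41). BUB1 had 39.3 TPM with Dox and 39.6 TPM without Dox (-0.01, but 0.04 on coding transcripts alone). BUB1B, the pseudokinase BUBR1 of the checkpoint complex, had 43.5 TPM with Dox and 52.3 TPM without Dox (-0.26).

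AURKB works in the chromosomal passenger complex, whose other 3 subunits did not move alike. BIRC5 (ENSG00000089685, chromosome 17, 78214186 to 78225636), which codes for survivin, had 54.2 TPM with Dox and 87.4 TPM without Dox, the lowest log2 difference of all members (-0.68). CDCA8, the subunit borealin, had 21.1 TPM with Dox and 22.5 TPM without Dox (-0.09). INCENP, the scaffold, had 17.3 TPM with Dox and 15.1 TPM without Dox (0.18), a direction that turned when short transcripts were left out.

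Among the 5 checkpoint and APC/C factors 4 were lower, where 47.0% of all genes compared were. MAD2L1 (ENSG00000164109, chromosome 4, 120055608 to 120067074), the checkpoint protein that binds the APC/C activator, had 50.2 TPM with Dox and 74.99 TPM without Dox (-0.57). CDC20, that activator, had 30.3 TPM with Dox and 36.7 TPM without Dox (-0.27). UBE2C, the ubiquitin-conjugating enzyme of the APC/C, had 38.4 TPM with Dox and 46.2 TPM without Dox (-0.26). The pseudogene UBE2CP5 was listed at 8.79% of the UBE2C level with Dox and 12.5% without Dox, so fragments may be split between these copies. The 2 most abundant members were in this group and hardly differed. BUB3, a WD-repeat protein of the checkpoint, had 209 TPM with Dox and 201 TPM without Dox (0.05). PTTG1, the separase inhibitor securin, had 169 TPM with Dox and 179.6 TPM without Dox (-0.08).

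All 8 measured kinesins were lower with Dox, where 47.0% of all genes compared were. The median log2 difference of the 8 was -0.22. KIF20A (ENSG00000112984, chromosome 5, 138178719 to 138187715), a motor of the central spindle needed for cytokinesis, had 24.3 TPM with Dox and 37.7 TPM without Dox (-0.61). KIF20B, also a cytokinesis motor, had 18.8 TPM with Dox and 23.4 TPM without Dox (-0.30). The chromosome-bound KIF4A and the midbody motor KIF14 had log2 differences of -0.25 each, and KIF11, which pushes the spindle poles apart, had 26.0 TPM with Dox and 29.9 TPM without Dox (-0.20). The other 3 kinesins were nearer to equal in TPM. KIF2C, a microtubule depolymerase, had 29.9 TPM with Dox and 32.1 TPM without Dox (-0.10), but in estimated fragments it differed by -0.24, as KIF11 did. KIF23, the motor of centralspindlin, and KIF18A, which limits microtubule length, had log2 differences of -0.06 and -0.05. KIF18A was also among the members of lowest level, at 7.81 TPM with Dox and 8.12 TPM without Dox.

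At the kinetochore, 6 of 7 genes were lower in TPM, where 47.0% of all genes compared were. All 7 were lower in estimated fragments, a scale described further on, where 53.2% of all genes were. The 4 genes of the NDC80 complex, which grips microtubules, were all lower but stood at unequal levels. NUF2 had 30.3 TPM with Dox and 33.7 TPM without Dox (-0.15). NDC80 had 21.8 TPM with Dox and 23.8 TPM without Dox (-0.12, and -0.31 in estimated fragments). SPC24 had 7.31 TPM with Dox and 8.33 TPM without Dox (-0.17, but -0.76 in estimated fragments). SPC25 had 2.20 TPM with Dox and 3.30 TPM without Dox (-0.43), but only 1 of its 4 annotated transcripts was in the analysed table, so its level is a partial one. CENPA, the histone variant that marks centromeres, had 19.9 TPM with Dox and 22.7 TPM without Dox (-0.18). CENPF, a large protein of the outer kinetochore, had 37.7 TPM with Dox and 44.6 TPM without Dox (-0.23). Most of that lay in the noncoding transcript CENPF-204 of 734 nt, at 6.23 TPM with Dox and 10.7 TPM without Dox, and CENPF differed by -0.08 both on coding transcripts and in estimated fragments. The kinetochore motor CENPE had 10.7 TPM with Dox and 10.1 TPM without Dox (0.08).

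The 7 genes of the spindle, the midzone and chromosome structure held the widest exception. ECT2 (ENSG00000114346, chromosome 3, 172750682 to 172821474), the exchange factor that activates RhoA at the division furrow, had 64.6 TPM with Dox and 48.2 TPM without Dox, the highest log2 difference of all members (0.42). ANLN, which codes for anillin, the scaffold of the same contractile ring, had 29.7 TPM with Dox and 33.0 TPM without Dox (-0.15). PRC1, which bundles midzone microtubules, had 59.5 TPM with Dox and 56.7 TPM without Dox (0.07). The spindle assembly factor TPX2, an activator of Aurora A, had 75.6 TPM with Dox and 89.7 TPM without Dox (-0.24). DLGAP5 and NUSAP1, which bind spindle microtubules, had log2 differences of -0.31 and -0.20. TOP2A, the topoisomerase that untangles sister chromosomes, had 104 TPM with Dox and 109.8 TPM without Dox (-0.08). Exons of NUSAP1 and PRC1 are shared in large part (62.2% and 57.6% of their exonic bases) with the genes ENSG00000285920 and ENSG00000284946 on the same strand, so their levels are uncertain.

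Since TPM divides by length, moving fragments between long and short transcripts of a gene shifts its TPM without any change in the number of fragments. Fragments were therefore estimated for the 41 members whose transcripts of 600 nt or more made up 80% or more of the gene's TPM. On this scale 39 of the 41 had a ratio below 1, where 53.2% of all genes did, with a median ratio of 0.822. The exact 95% binomial interval (Clopper-Pearson) lay below 1 for 32 members, where it did for 29.1% of all genes, and above 1 for 2 members, ECT2 and CDC25B, where it did for 24.6%. It included 1 for the other 7, which were BUB1, BUB3, CDCA8, KIF18A, KIF23, PTTG1 and TTK. The intervals depend on that depth estimate and show counting error alone, with no allowance for variation between cultures or for fragments shared by transcripts.

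Precision followed depth. TOP2A, with 10505 fragments with Dox and 8795 without Dox, had a ratio of 0.919 (interval 0.893 to 0.945). SPC25, with 43 and 52 fragments, had a ratio of 0.646 with a wide interval of 0.414 to 0.971. The ratio was 0.596 (0.562 to 0.631) for BIRC5, 0.645 (0.598 to 0.695) for KIF20A and 0.657 (0.616 to 0.70) for PLK1. It was 0.682 (0.630 to 0.737) for FOXM1 and 0.691 (0.651 to 0.734) for CCNA2. Exons of FOXM1 and CCNA2 overlap those of ITFG2 and EXOSC9 on the opposite strand (15.9% and 9.08% of their exonic bases), and whether the authors' counting used strand is not given in the sources used here, so both levels are uncertain to that extent. SPC24 had a ratio of 0.592 (0.473 to 0.737), the lowest of the 41. For 16 of the 41 members the log2 difference in fragments stood apart from that in TPM by over 1.5 times. It was larger on the lower side for 11, among them AURKB (-0.55) and CDC25C (-0.32), and smaller for TTK (-0.14) and CENPF. For BUB3, CENPE and PRC1 it turned. CENPE and PRC1 were higher in TPM but had fragment ratios of 0.891 (0.825 to 0.963) and 0.913 (0.856 to 0.973). ECT2 had a ratio of 1.31 (1.24 to 1.37), and CDC25B 1.16 (1.05 to 1.28).

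**Figure D3:**
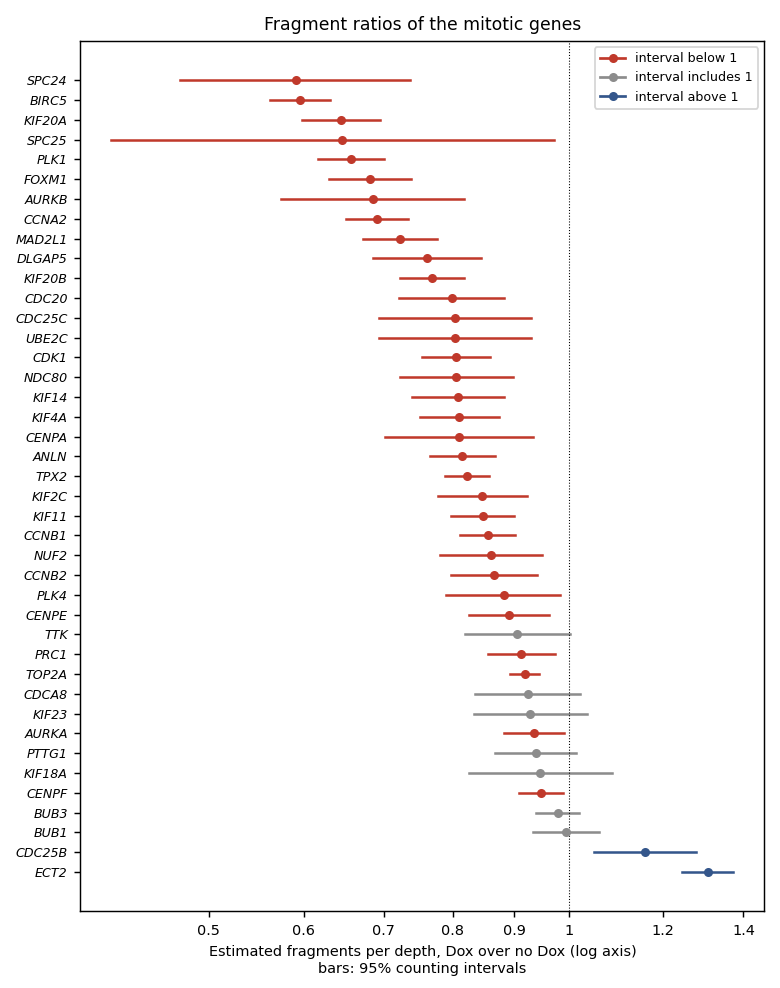
Ratio of estimated fragments per depth, Dox over no Dox, for the 41 mitotic genes with an estimate, on a log axis; bars are 95% counting intervals for 1 library per group. The intervals of 32 genes lie below 1, those of 7 include it, and those of CDC25B and ECT2 lie above it.

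Protein-coding transcripts held 90.2% of the members' TPM in either library, and counting them alone 39 of 44 members were lower with Dox, with a median of -0.22. On coding transcripts 47.5% of all genes were lower, with a median of 0.02. The transcript with the highest mean was protein-coding in 42 members; the exceptions were MAD2L1 and NUSAP1. In 12 members at least 1 transcript was listed at 0 in one library and at 1 TPM or more in the other, 16 transcripts in all. That is 27.3% of the members, where 30.4% of all genes compared had such a transcript. Single transcripts are less certain than gene sums, since fragments that fit several transcripts are shared out among them.

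In several of the lower genes the difference lay in the main transcript. BIRC5-202 had 40.8 TPM with Dox and 68.8 TPM without Dox, while BIRC5-201 had 3.92 TPM with Dox and 4.47 TPM without Dox. CCNA2 had a single transcript in the table. In PLK1 the difference was split between the full transcript PLK1-201, at 42.4 TPM with Dox and 61.1 TPM without Dox, and the short coding transcript PLK1-207, at 25.6 TPM with Dox and 44.9 TPM without Dox. FOXM1-202 had 7.80 TPM with Dox and 13.4 TPM without Dox, and FOXM1-203 had 4.50 TPM with Dox and 6.52 TPM without Dox. FOXM1-210 went the other way, at 5.11 TPM with Dox and 4.43 TPM without Dox. MAD2L1 was lower in its main transcript MAD2L1-202, annotated as a target of nonsense-mediated decay, at 42.1 TPM with Dox and 58.2 TPM without Dox. Its retained-intron transcript MAD2L1-205 was listed at 0 with Dox and at 7.13 TPM without Dox, and on coding transcripts alone its log2 difference was -0.29.

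In other genes the sum hid opposite values. KIF23-202 had 5.83 TPM with Dox and 10.4 TPM without Dox, whereas KIF23-215 had 5.77 TPM with Dox and 2.38 TPM without Dox. CDC25B-201 had 11.1 TPM with Dox and 5.83 TPM without Dox, whereas CDC25B-205 had 1.68 TPM with Dox and 5.30 TPM without Dox. A noncoding processed transcript, CDC25B-206, had 6.56 TPM with Dox and 1.75 TPM without Dox, and on coding transcripts alone CDC25B differed by -0.09. The higher TPM of INCENP came from INCENP-205, a processed transcript of 561 nt listed at 7.80 TPM with Dox and at 0 without Dox. Its main coding transcript INCENP-202 had 4.98 TPM with Dox and 8.80 TPM without Dox, and the gene differed by -0.57 on coding transcripts alone. ECT2 was higher in its main coding transcript ECT2-201, at 47.6 TPM with Dox and 30.1 TPM without Dox, and by 0.38 on coding transcripts alone. The lower TPM of TTK rested largely on TTK-211, a transcript of 240 nt listed at 0 with Dox and at 3.83 TPM without Dox. Its main transcript TTK-202 had 14.8 TPM with Dox and 16.2 TPM without Dox. In NUSAP1 the short processed transcript NUSAP1-206 had 36.9 TPM with Dox and 35.7 TPM without Dox, and the coding transcripts together differed by -0.66.

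**Figure D4:**
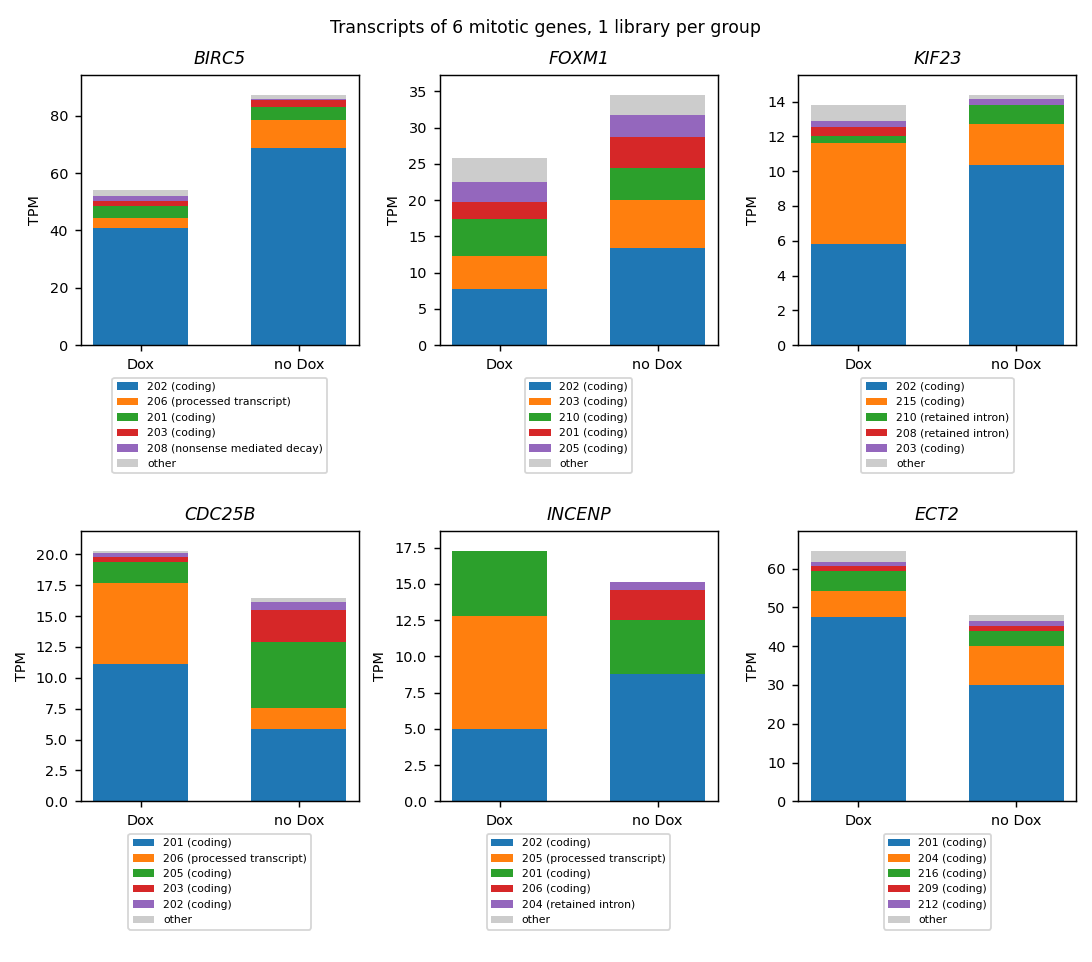
TPM of the 5 highest transcripts (numbered as in GENCODE) and of all others for 6 mitotic genes, as stacked bars with Dox left of no Dox, 1 library per group. BIRC5-202 has 40.8 TPM with Dox and 68.8 TPM without Dox and ECT2-201 has 47.6 TPM with Dox and 30.1 TPM without Dox, while in INCENP a processed transcript of 561 nt listed at 0 without Dox makes up the higher sum.

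The rest of the mitotic machinery, 116 other genes in 7 lists of which 115 reached a mean of 1 TPM, was lower with Dox in 81 cases (70.4%), with a median of -0.13. Over all genes compared 47.0% were lower, with a median of 0.02. The lists were not alike. Of 23 other spindle and cytokinesis genes 19 were lower (median -0.18), led by the chromosome motor KIF22 at 38.3 TPM with Dox and 54.1 TPM without Dox (-0.49). Of 31 other kinetochore and centromere genes 25 were lower (median -0.17), with values on both sides. CENPM had 9.45 TPM with Dox and 18.4 TPM without Dox (-0.90), and CENPT, which links centromeric DNA to the NDC80 complex, had 34.96 TPM with Dox and 19.2 TPM without Dox (0.83, and 0.43 in estimated fragments). Of 9 genes of condensin and MKI67 7 were lower (median -0.11). NCAPG, a condensin subunit, had 21.1 TPM with Dox and 29.9 TPM without Dox (-0.49), and MKI67, the proliferation marker Ki-67, had 21.8 TPM with Dox and 30.8 TPM without Dox (-0.48).

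Of 13 other mitotic entry and exit genes 8 were lower (median -0.14), with CDC25A, the third CDK-activating phosphatase, at 10.7 TPM with Dox and 16.7 TPM without Dox (-0.59). Among 9 genes of MuvB, B-MYB and related regulators 6 were lower (median -0.16). MYBL2, which codes for B-MYB, had 28.95 TPM with Dox and 45.3 TPM without Dox (-0.63), whereas RBL2, a repressor of cell-cycle genes, had 34.0 TPM with Dox and 29.2 TPM without Dox (0.21). The APC/C list was lower in 10 of 17 cases (58.8%, median -0.04), where 47.0% of all genes compared were. In estimated fragments 6 of its 12 genes with an estimate were lower (median -0.03), where 53.2% of all genes were. Cohesin and separase genes were lower in 6 of 13 cases in TPM (46.2%, median 0.02), near the 47.0% of all genes. In estimated fragments 9 of these 13 were lower (median -0.08), against 53.2% of all genes (median -0.02). The separase gene ESPL1 had 4.65 TPM with Dox and 7.56 TPM without Dox (-0.60, and -0.30 in estimated fragments). CDCA5, the cohesin protector sororin, had 18.6 TPM with Dox and 27.9 TPM without Dox (-0.56, and -0.63 in estimated fragments).

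The closest group outside mitosis is DNA replication. All 16 genes of replication licensing and the fork were lower (median -0.41), where 47.0% of all genes compared were. Past a fold of 1.5 on the lower side, where 3.90% of all genes lay, were FEN1 and CDC6. FEN1 had 28.998 TPM with Dox and 49.3 TPM without Dox (-0.74), and CDC6 had 35.2 TPM with Dox and 58.9 TPM without Dox (-0.73). In estimated fragments the medians were -0.28 on the log2 scale for the mitotic members and -0.48 for the replication list, against -0.02 for all genes. With 1 library per group the difference between these lists could not be tested.

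**Figure D5:**
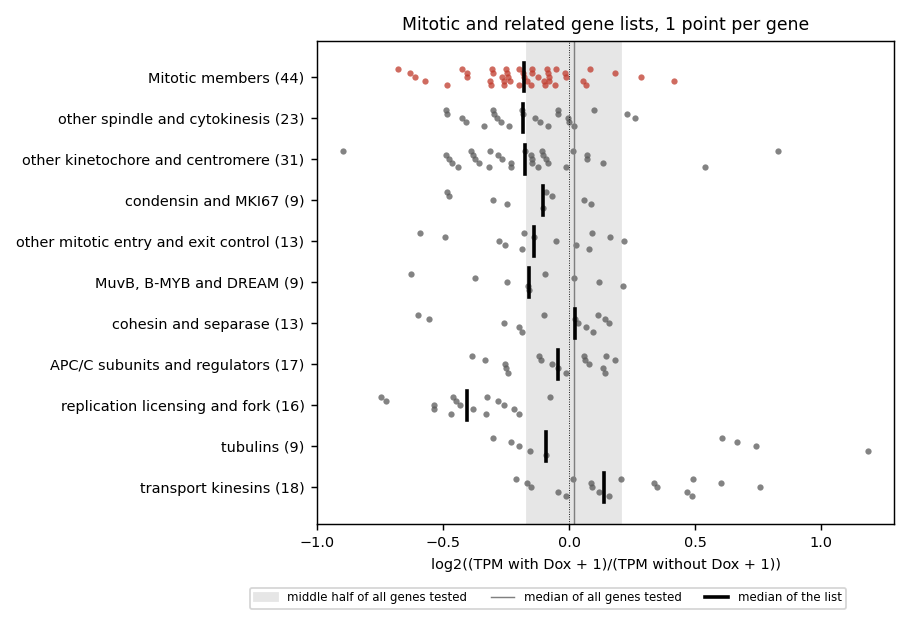
Log2 differences, Dox over no Dox on the TPM + 1 scale, of the 44 mitotic genes and of related lists, 1 point per gene with a mean of at least 1 TPM and the number of genes in brackets; black bars are list medians and the grey band holds the middle 50% of all 11582 genes, from -0.17 to 0.21. The mitotic median of -0.18 lies just below the band, the replication median of -0.41 lies further below it, and the median of cohesin and separase genes, 0.02, lies at the median of all genes.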

How the data were processed

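Polyadenylated RNA of 2 libraries was compared. The authors deposited 1 table of TPM values with 184844 transcripts; Trimmomatic, Salmon and the build GRCh38.p13 are named in the submitters' processing notes, without versions or an annotation release. Each column summed to 1000000. Transcripts were named through GENCODE release 29 by identifier without version. Of them 161798 matched, and the others held 6.66% of the TPM with Dox and 6.73% without Dox, so part of a gene can be missed. A gene's value is the sum over its matched transcripts; where several identifiers shared a symbol the most abundant was kept.

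Differences are log2 of TPM plus a pseudocount of 1, which understates the change of low genes. Genes with a mean of at least 1 TPM were compared, and folds of 1.5 and 1.25 were counted. Each group has 1 library, so no p-value is given. Salmon shares fragments among similar transcripts, so a single transcript's TPM is less certain than a gene's.

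Depth was estimated from genes with 1 transcript of at least 600 nt, whose TPM times length, less an offset of 310 nt (Dox) or 300 nt (no Dox), fell near whole multiples of one step. Of the values worth under 5.5 fragments, 401 of 465 (86.2%) with Dox and 386 of 451 (85.6%) without Dox lay within 0.1 of a whole number. Step and offset were fitted to the same values, so this is no independent check. The depth of a library is the sum of estimated fragments over matched transcripts of 600 nt or more. Shorter transcripts count as 0 there and in the fragment ratios. Fragment intervals are exact 95% Clopper-Pearson intervals of counting error only.

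The members and gene lists were chosen with earlier results of these data known. Values are written out for the members with the 10 lowest and 4 highest differences and the 3 highest and 3 lowest levels. They are also given for at least 2 members of each role, and for up to 3 genes of most other lists. Genes of other lists were taken in order of their difference at a mean of at least 5 TPM. Transcripts are named for chosen members, and a transcript that holds most of a gene's difference is not named in every case. RBL2, KIF5B, the tubulins and other exceptions were chosen after their values were seen. Where a gene has several starts in the RefSeq promoter table, the first listed was used. Alternatives changed the pseudocount, the filter on low values, the transcripts summed, the scaling and the length correction. Python 3.11.15, numpy 2.4.6, pandas 2.3.3, scipy 1.17.1 and matplotlib 3.10.9 were used.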

Additional observations from a re-analysis of the deposited data

How the results depend on the processing

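The number of mitotic genes lower with Dox lay between 37 and 39 under the 9 alternatives, out of 41 to 44 members. Over all genes 47.0% were lower as reported and 22.8% with no filter on low values. That share was 44.4% without the mitochondrial genome, 47.5% on protein-coding transcripts, 48.3% on the highest transcript, 50% when centred and 53.2% in estimated fragments. It was 47.0% with the other pseudocounts and 47.1% with a minimum mean of 5 TPM. The median over all genes lay between -0.02 in estimated fragments and 0.04 without the mitochondrial genome. The median of the members, -0.18 as reported, was -0.16 with a pseudocount of 5 TPM and with the mitochondrial genome left out, -0.20 when centred on all genes, -0.22 on protein-coding transcripts, -0.26 on the highest transcript of each gene and -0.28 in estimated fragments. The log2 ratio of their summed TPM, -0.19 as reported, was -0.21 when centred, -0.21 in estimated fragments and -0.17 without the mitochondrial genome. Members at least 1.5-fold lower numbered 3 as reported and 5 both in estimated fragments (BIRC5, KIF20A, PLK1, SPC24 and SPC25) and on the highest transcript (BIRC5, FOXM1, INCENP, KIF23 and SPC24), 4 when centred and 2 with a pseudocount of 5 TPM. The share of all genes at that fold was 3.90% as reported, and 4.57%, 5.36%, 4.16% and 1.5% under these alternatives in the same order. Of 232 values of the 26 members named by rule, 6 changed sign. INCENP was -0.57 on coding transcripts and -0.71 on its highest, CDC25B -0.09 on coding transcripts, CDCA8 0.18 on its highest transcript, and BUB3 and CENPE -0.03 and -0.17 in estimated fragments. Members outside that rule also changed sign, such as BUB1 on coding transcripts (0.04) and PRC1 in estimated fragments (-0.13). The cause of these changes was not tested. Depth limits SPC25 most. No paired analysis was possible because each group has 1 library.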

Other observations

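Tubulins are the building blocks of the spindle and of all other microtubules. A chosen list of 9 tubulin genes parted by level. The 5 of them with the highest levels were lower with Dox, where 47.0% of all genes compared were. They were TUBA1B at 445 TPM with Dox and 522 TPM without Dox, TUBA1C at 378 TPM with Dox and 402 TPM without Dox, TUBB at 316 TPM with Dox and 352 TPM without Dox, TUBB4B at 145 TPM with Dox and 179 TPM without Dox, and TUBG1, which nucleates microtubules, at 59.1 TPM with Dox and 68.1 TPM without Dox. The 4 of the 9 with the lowest levels were at least 1.5-fold higher, where 5.32% of all genes compared were. The tubulins were chosen after their values were seen, so the shares over all genes are no test of this list. TUBB2A had 40.1 TPM with Dox and 26.0 TPM without Dox (fragment ratio 1.47, counting interval 1.32 to 1.64), and TUBB2B, its near-identical relative, had 14.5 TPM with Dox and 8.78 TPM without Dox (1.61, interval 1.37 to 1.90). TUBB6 had 10.7 TPM with Dox and 6.01 TPM without Dox, and TUBA1A had 5.05 TPM with Dox and 1.66 TPM without Dox. Closely related tubulin genes share sequence, and these levels are uncertain to that extent.

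Genes for kinesin motors that carry cargo outside mitosis, and for their partner chains, did not share the direction of the mitotic motors. Of 18 transport kinesin genes with a mean of at least 1 TPM, 5 were lower and 13 higher with Dox, with a median of 0.14. The 18 include the light chains KLC1 (0.09), KLC2 (0.09) and KLC4 (-0.15) and the associated protein KIFAP3 (0.35), which are not motors. Of the mitotic kinesins 8 of 8 were lower, with a median of -0.22. Over all genes compared 47.0% were lower, with a median of 0.02. KIF3C had 12.6 TPM with Dox and 7.04 TPM without Dox (fragment ratio 1.43, interval 1.26 to 1.61). KIF3A had 7.75 TPM with Dox and 4.75 TPM without Dox, and KIF16B had 15.2 TPM with Dox and 10.5 TPM without Dox. KIF5B, the conventional kinesin heavy chain and the most abundant of the list, had 237 TPM with Dox and 188 TPM without Dox (ratio 1.24, interval 1.21 to 1.26). In estimated fragments 7 of 17 transport kinesin genes were lower, with a median of 0.17 on the log2 scale. Among all genes 53.2% were lower on that scale, with a median of -0.02.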
